A study of Mus musculus with 4 samples.

Results

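Semaphorins, plexins and neuropilins were followed through the nuclei of the arcuate nucleus of the hypothalamus in mice with DOCA-salt hypertension and in Sham mice. Members were taken by name alone from the gene list of the deposited matrices: symbols of the Sema3 to Sema7 classes, the Plxn genes, Plxdc1, Plxdc2, Nrp1 and Nrp2. This gave 33 genes of the 31053 listed, made up of 20 semaphorins, 9 plexins, 2 plexin domain containing genes and 2 neuropilins. The naming rule uses no measured value, and no member served as a marker for sorting nuclei into classes.

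The animals were wildtype male C57BL/6J mice, 10 weeks old at collection. DOCA-salt mice carried a subcutaneous deoxycorticosterone acetate pellet and had a saline drink beside water for 3 weeks, while Sham mice had the surgery without the pellet. Punches of the arcuate nucleus were turned into nuclei, nuclei of 2 mice were pooled, and each pool became 1 10x Genomics library, with 2 libraries per treatment. The pool is therefore the unit of replication, and an exact permutation test of 2 against 2 cannot give a two-sided p below 0.333.

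Semaphorins are secreted or membrane-bound guidance cues, known from growth cone repulsion and later found in vessels, immune cells and myelin-forming cells. Class 3 semaphorins are secreted and mostly bind neuropilins, which hold the ligand while a plexin of the A or D family passes the signal on. Class 4 to 7 semaphorins are largely anchored in the membrane and bind plexins directly: class 4 mainly B plexins, class 6 mainly A plexins, and Sema7a binds Plxnc1 and integrins. Plexins act on small GTPases and so on the cytoskeleton. Plxdc1 and Plxdc2 are named for a domain they share with plexins and are not semaphorin receptors of the plexin type.

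A few promoter windows show members at the ends of the class pattern described below: Sema3d and Plxnb3, high in cells of the oligodendrocyte lineage, and Sema3g, high in endothelial cells. Each is RefSeq sequence of build GRCm38.p6, from 250 bases before to 50 bases after the gene start, on the plus strand. Capitals mark exact matches to ACAAAG or its reverse complement CTTTGT, the core bound by SOX factors, and to CCGGAA or its reverse complement TTCCGG, a core bound by ETS factors. No SOX match overlapped an ETS match in these windows. The start is RefSeq's and can differ from the gene positions printed here, which are from GENCODE vM21 (GRCm38).
Sema3d, chr5:12382916-12383215: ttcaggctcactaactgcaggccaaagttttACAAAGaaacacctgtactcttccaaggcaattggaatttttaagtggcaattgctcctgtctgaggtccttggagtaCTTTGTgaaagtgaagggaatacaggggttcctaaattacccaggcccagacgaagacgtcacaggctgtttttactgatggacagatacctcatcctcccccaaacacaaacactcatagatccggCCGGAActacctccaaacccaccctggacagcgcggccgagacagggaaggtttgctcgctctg
Plxnb3, chrX:73756853-73757152: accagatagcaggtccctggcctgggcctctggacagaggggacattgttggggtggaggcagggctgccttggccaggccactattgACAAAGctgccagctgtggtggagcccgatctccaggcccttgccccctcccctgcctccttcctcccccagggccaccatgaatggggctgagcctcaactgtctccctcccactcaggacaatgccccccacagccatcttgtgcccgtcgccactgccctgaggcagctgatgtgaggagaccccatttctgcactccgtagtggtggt
Sema3g, chr14:31217623-31217922: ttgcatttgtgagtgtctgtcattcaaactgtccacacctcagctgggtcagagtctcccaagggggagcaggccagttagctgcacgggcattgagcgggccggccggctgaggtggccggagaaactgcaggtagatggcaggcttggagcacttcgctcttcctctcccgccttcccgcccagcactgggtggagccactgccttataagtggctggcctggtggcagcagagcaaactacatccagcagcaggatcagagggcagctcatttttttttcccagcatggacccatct

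The Sema3d window held 2 SOX core matches, which began at -219 and -141 relative to the gene start, and an ETS core match at -14. The Plxnb3 window held 1 SOX core match, at -162. The Sema3g window held neither. Other called members did not keep to this split. In endothelial cells, Sema3c held a SOX core match at 5, and Nrp1 and Plxnd1 held none. In the oligodendrocyte lineage, Sema6d held a match at -246 in 1 window, and Sema5a, Sema5b and Sema4d held none. Sema7a, called in both, held none. Among all 32851 windows of this length, 18.7% held the SOX core and 14.9% the ETS core on either strand. RefSeq windows of 26 members were read, 37 windows in all, of which 8 held the SOX core and 4 the ETS core. Member windows on chromosome 18, where Sema6a lies, were left out. A match is a run of letters and was not tested as a binding site.

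Sequencing depth ranged from 45126915 to 79437196 unique molecular identifiers (UMIs) per library, and from 2203 to 18907 nuclei passed the limits on quality. The Sham 1 library stood apart with the fewest nuclei and a median of 8215 UMIs per nucleus, against 2401 to 3278 in the other libraries. Within each tested class, both Sham libraries had a higher median of UMIs per nucleus than both DOCA-salt libraries. In astrocytes the medians were 1069.5 and 987 in the DOCA-salt libraries and 4941.5 and 2046 in Sham. Marker UMIs for neighbouring regions also differed: lateral hypothalamic markers reached 3653 UMIs per 1000000 in DOCA-salt 2 and at most 57.0 elsewhere, and striatal markers reached 622 in DOCA-salt 1 and at most 216 elsewhere. Paraventricular and supraoptic markers stood at 21.6 and 1439 in the DOCA-salt libraries and 278 and 622 in Sham. Suprachiasmatic markers stood at 14.6 in DOCA-salt 1 and 55.0 to 59.0 elsewhere. Ventromedial markers stood at 34.8 and 64.1 in the DOCA-salt libraries and 44.9 and 45.1 in Sham. Nuclei with paraventricular, supraoptic, suprachiasmatic or ventromedial markers were left out in no alternative. Over all pairs of libraries, 141 barcodes were shared. Nuclei were assigned to 16 classes by marker UMIs, and those without a clear lead of 1 class were left out, so that 916 to 7460 nuclei per library (36.7% to 41.6% of those kept) had a class. Of the 16 classes, 9 had at least 10 nuclei in every library and were tested, and the other 7 were not. Names are of the X-like kind, from marker genes. Among the 10 genes of largest fold in a class were known ones that the gate had not used: Neu4 in oligodendrocyte precursors, Hapln2 in mature oligodendrocytes, Ptprc in microglia and Tek in endothelial cells. The ventromedial markers Nr5a1 and Fezf1 were among the 10 of glutamatergic neurons, so that class is not read as arcuate neurons alone.

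Levels are given as CPM, the UMIs of a gene per 1000000 UMIs of its class in a library. They are compared across classes within a gene and not between genes. In droplet data free RNA can give UMIs in nuclei that do not express a gene. Genes known from 1 class were therefore read in the others, chosen after values were seen. The neuronal genes Meg3, Celf4 and Scg2 stood in non-neuronal classes at 13.2% to 67.9% of their neuronal level, and astrocyte genes (Slc4a4, Slc39a12, Mlc1) outside astrocytes at 3.72% to 50.4% of theirs. The highest share was 13.4% for genes of mature oligodendrocytes and 6.28% for those of the precursors, while endothelial genes (Ptprb, Tek, Mecom) stood outside endothelial cells at no more than 1.82% and microglial genes (Inpp5d, Ptprc, Fyb) elsewhere at no more than 4.17%. The part of free RNA in the member levels was not tested.

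Of the 33 members, 29 passed the filter on low counts for the comparison of classes, and 20 of them were higher in at least 1 class than in the mean of the other tested classes (edgeR quasi-likelihood test, adjusted p under 0.05 over all genes and log2 fold change over 1). They comprised 13 semaphorins, 6 plexins and neuropilins, and Plxdc2. The share of all genes called in at least 1 class was not counted, so 20 of 29 has no reference share. Of 27 such calls, 21 (77.8%) fell in non-neuronal classes and 6 in neurons, near the split over all genes, of whose 4841 calls 3956 (81.7%) fell in those classes. In 11 calls the class was the highest of the 9 in all 4 libraries. A member was called in 1 class in 14 cases, in 2 classes in 5 cases and in 3 classes in 1 case. The map of log2 fold changes by class shows blocks for endothelial cells, the oligodendrocyte lineage and astrocytes, with small differences among the neuron classes.

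**Figure D1:**
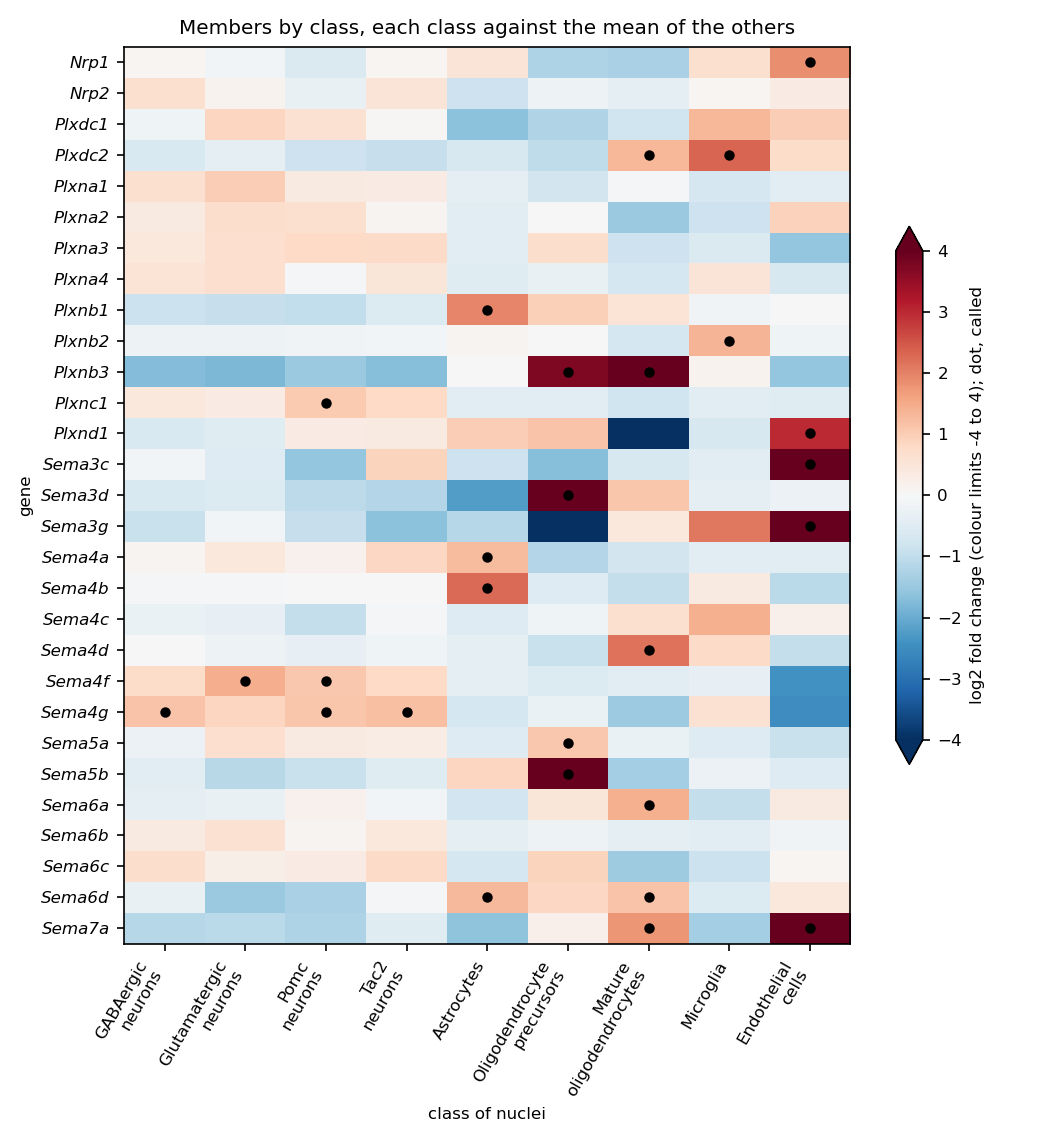
Log2 fold change of each tested member (rows) in each class of nuclei (columns) against the mean of the other classes, edgeR fit over 4 libraries. Dots mark the 27 calls; the colour scale stops at -4 and 4, and values beyond share its end colours. The non-neuronal columns hold 21 of the 27 dots, a share near that of all genes.

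In endothelial cells, the secreted ligands Sema3c and Sema3g and the membrane-anchored Sema7a were high together with the receptors Nrp1 and Plxnd1. These were 5 of 29 members, where 8.38% of the 10913 genes tested were called. Sema3c, a neuropilin ligand with a known part in the forming heart and vessels, measured 300 and 355 CPM in the DOCA-salt libraries 1 and 2 and 266 and 140 CPM in the Sham libraries 1 and 2, against a mean of 11.0 in the other classes. Every library had its highest Sema3c level in endothelial cells, and the log2 fold change was 4.86 ± 0.32 (SE, adjusted p = 1.84e-18, edgeR). Sema7a (chr9:57940112-57962865, plus strand, GRCm38), the only class 7 member, measured 252, 320, 275 and 186 CPM in the same order, with a log2 fold change of 4.91 ± 0.27 (SE, adjusted p = 9.16e-22, edgeR).

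Sema3g, a class 3 semaphorin known from arteries, rested on fewer molecules and was the most restricted. It measured 60.1, 45.7, 66.6 and 74.5 CPM in endothelial cells, from 5, 9, 8 and 8 UMIs. The mean over the other tested classes was 0.995 CPM, and oligodendrocyte precursors had 0 UMIs in all 4 libraries, so the fitted fold change depends on the prior count and is not given. It was called with an adjusted p of 5.93e-13 (edgeR). Endothelial nuclei numbered 47, 94, 22 and 43.

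Among receptors, Nrp1, which is also a co-receptor for vascular endothelial growth factor, reached 130 ± 41.7 CPM (SD, n = 4 libraries) in endothelial cells and 42.4 on average in the other classes (log2 fold change 1.87 ± 0.32 SE, adjusted p = 5.87e-06, edgeR). Plxnd1, the plexin known from developing vessels, stood at 50.1 ± 25.4 CPM (SD, n = 4 libraries) against 8.60, with an adjusted p of 4.40e-07 (edgeR). Its counts were small, from 3 to 10 UMIs per library, and mature oligodendrocytes held 1 UMI in all. The lower calls in endothelial cells numbered 3 of 29 members. The share of lower calls over all genes was not counted, here or in the other classes. The median log2 fold change of the 29 was -0.15 there and -0.07 over all genes.

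**Figure D2:**
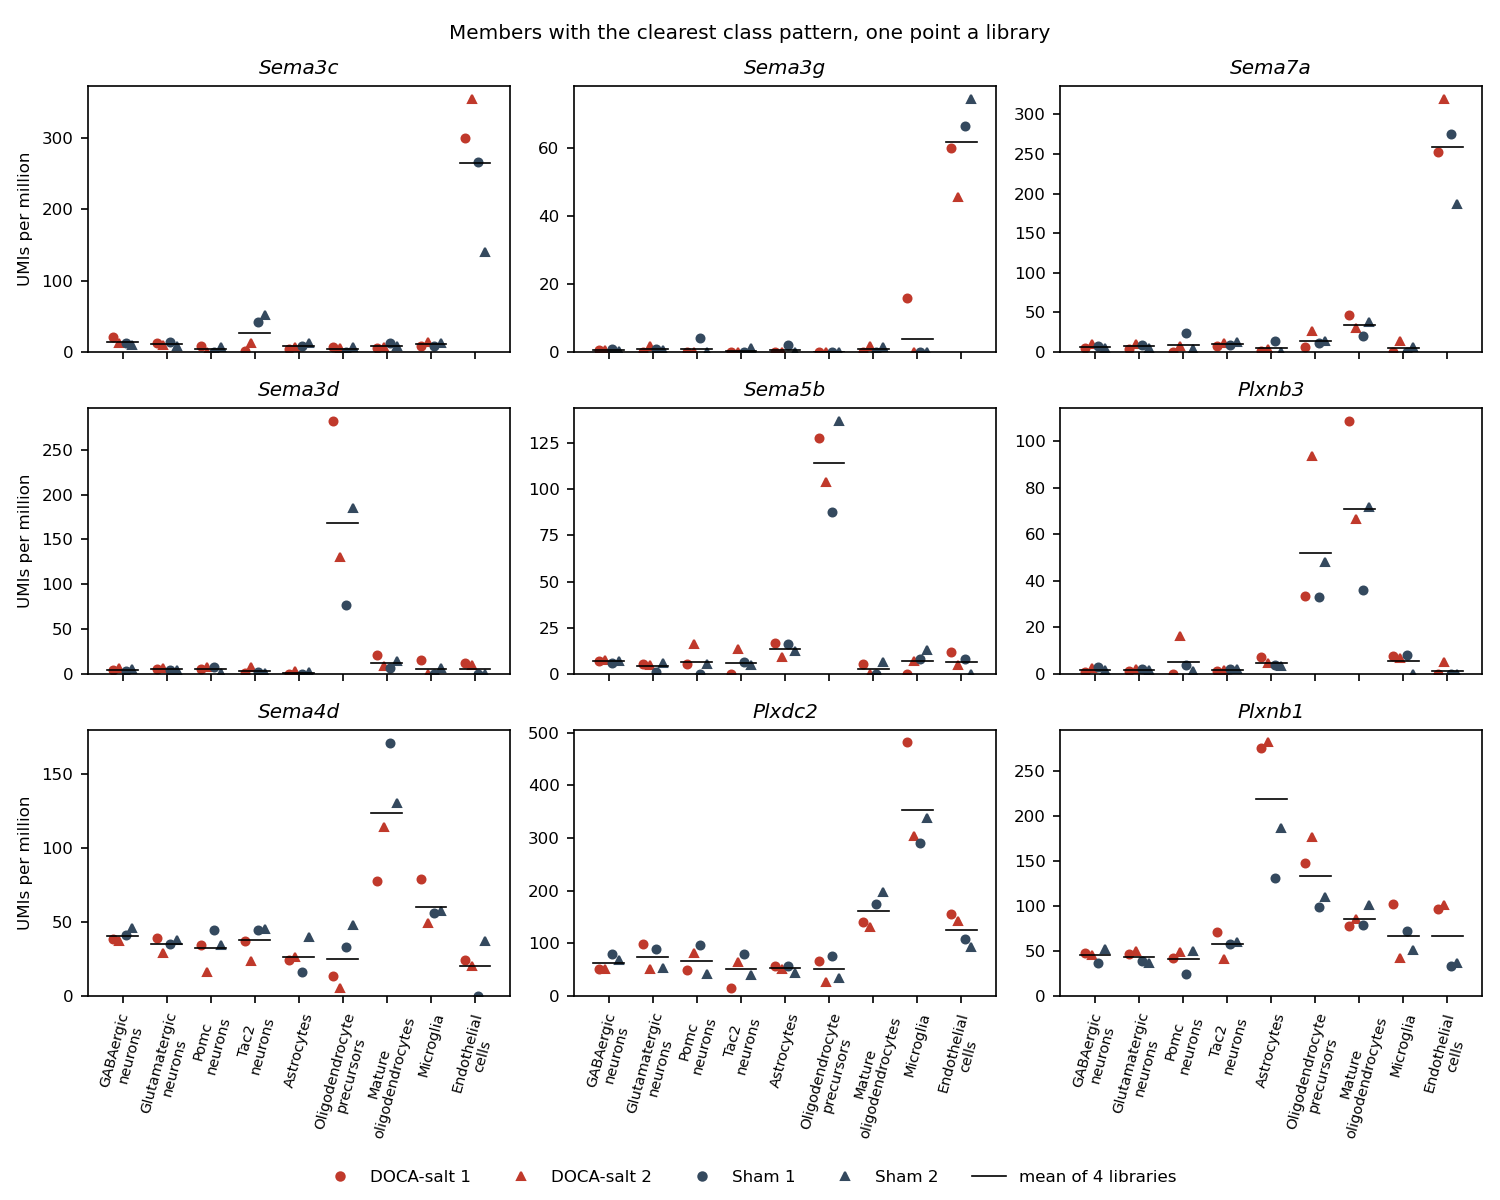
CPM (linear axis from 0) of 9 members in the 9 tested classes, a point for each library and a bar for the mean of the 4. Sema3c, Sema3g and Sema7a peak in endothelial cells, Sema3d and Sema5b in oligodendrocyte precursors, Plxnb3 and Sema4d in mature oligodendrocytes, Plxdc2 in microglia and Plxnb1 in astrocytes.

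Oligodendrocyte precursors had 2 semaphorins that were scarce in the other tested classes. The called members were 4 of 29, Sema3d, Sema5b, Plxnb3 and Sema5a, where 6.01% of all genes were called. Sema3d (chr5:12383385-12588948, plus strand), a secreted ligand, measured 282 and 130 CPM in the DOCA-salt libraries and 76.8 and 185 CPM in the Sham libraries, while the other classes averaged 5.51. Sema5b, a membrane semaphorin with thrombospondin repeats, measured 128, 104, 87.8 and 137 CPM against 6.77. In all 4 libraries both were highest in the precursors, with log2 fold changes of 5.07 ± 0.30 (SE, adjusted p = 4.76e-20) and 4.13 ± 0.34 (SE, adjusted p = 1.99e-14, edgeR).

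Sema3d and Sema5b were low again in mature oligodendrocytes, at 12.6 and 2.96 CPM on average. The related Sema5a was spread more widely, at 153 ± 35.8 CPM (SD, n = 4 libraries) in the precursors and 71.8 over the other classes. Its log2 fold change was 1.07 ± 0.20 (SE, adjusted p = 6.33e-05, edgeR) and fell to 0.99, below the threshold of 1, without DOCA-salt 1.

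Plxnb3, the B plexin known as a receptor for Sema5a, marked both stages of the lineage. It measured 33.6, 93.5, 32.9 and 48.0 CPM in the precursors, from 3 to 18 UMIs per library, and 109, 66.7, 36.2 and 71.9 CPM in mature oligodendrocytes. Which stage was higher varied: mature oligodendrocytes led in 3 libraries and the precursors in DOCA-salt 2. The log2 fold changes were 3.73 ± 0.44 (SE, adjusted p = 1.35e-09) and 4.40 ± 0.29 (SE, adjusted p = 6.38e-19, edgeR). In neurons Plxnb3 averaged 2.74 CPM.

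Mature oligodendrocytes carried the most calls, 6 of 29, where 7.75% of all genes were called; 5 members were called lower. Besides Plxnb3 these were Sema4d, Sema6a, Sema6d, Sema7a and Plxdc2. Sema4d (chr13:51685529-51793747, minus strand), a ligand of Plxnb1 and Plxnb2, measured 77.7, 115, 171 and 130 CPM against 34.8 in the other classes (log2 fold change 2.17 ± 0.16 SE, adjusted p = 8.94e-17, edgeR). Mature oligodendrocytes were the highest class for it in 3 of 4 libraries. Sema6a, the class 6 ligand of Plxna2 and Plxna4, stood at 149 ± 23.7 CPM (SD, n = 4 libraries) against 69.3.

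The Sema7a call in mature oligodendrocytes needs the scale to be read. Its level was 46.6, 30.8, 19.8 and 37.3 CPM, and the log2 fold change of 1.77 ± 0.32 (SE, adjusted p = 1.35e-05, edgeR) is against the mean of log levels. The plain mean of the other classes was 39.4 CPM, because endothelial cells alone stood at 258. Mature oligodendrocytes thus came after endothelial cells and above the neuron classes, which averaged 8.19 CPM.

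Astrocytes were led by Plxnb1 and Sema4b. Called members were 4 of 29, with Sema6d and Sema4a as the others, where 8.89% of all genes were called. Plxnb1 (chr9:109095389-109119917, plus strand), the receptor of Sema4d, measured 276 and 283 CPM in the DOCA-salt libraries and 131 and 186 CPM in the Sham libraries. The other classes averaged 67.6, and astrocytes were highest in all 4 libraries (log2 fold change 1.95 ± 0.12 SE, adjusted p = 4.50e-20, edgeR). Sema4b, a transmembrane class 4 ligand, measured 101, 63.8, 84.9 and 59.7 CPM against 18.7 (log2 fold change 2.27 ± 0.16 SE, adjusted p = 9.72e-18, edgeR).

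Sema6d, a class 6 ligand, was even across libraries in astrocytes at 118, 132, 111 and 123 CPM (log2 fold change 1.30 ± 0.15 SE, adjusted p = 5.76e-10, edgeR). Its level was close in oligodendrocyte precursors and mature oligodendrocytes, at 106 CPM in each on average, and low in glutamatergic neurons, at 27.0. The median log2 fold change of the 29 members was -0.42 in astrocytes and -0.03 over all genes.

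Microglia had 2 calls of 29, Plxdc2 and Plxnb2, where 5.21% of all genes were called. Plxdc2 (chr2:16356304-16755839, plus strand) measured 482, 303, 290 and 338 CPM against 80.4 elsewhere, highest in microglia in all 4 libraries (log2 fold change 2.33 ± 0.22 SE, adjusted p = 2.02e-12, edgeR). It was also called in mature oligodendrocytes, at 161 ± 31.0 CPM (SD, n = 4 libraries). Plxnb2, a receptor of Sema4c and Sema4d, measured 276, 176, 129 and 115 CPM in microglia (log2 fold change 1.37 ± 0.19 SE, adjusted p = 1.36e-07, edgeR). Sema4c was highest on average there too, at 35.4 ± 19.7 CPM (SD, n = 4 libraries), but was not called.

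Single neuron classes held 6 of the 27 member calls, near the split over all genes given above. GABAergic neurons had 1 call of 29 against 1.53% of all genes, glutamatergic neurons 1 against 2.55%, Pomc neurons 3 against 2.14% and Tac2 neurons 1 against 1.89%. The called members were Sema4f, Sema4g and Plxnc1, all 3 of them in Pomc neurons. There Sema4f averaged 71.2 CPM in DOCA-salt and 47.8 in Sham, and Sema4g 75.9 and 45.2. Sema4g, a class 4 ligand, measured 66.7, 66.6, 49.6 and 59.7 CPM in GABAergic neurons and 85.0, 63.9, 48.8 and 57.8 in Tac2 neurons. The spreads of these neuron classes overlapped. Endothelial cells and mature oligodendrocytes held 8.25% and 15.6% of the mean neuronal level of Sema4g.

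Sema4f, another class 4 ligand, was highest in glutamatergic neurons at 73.7, 76.7, 62.1 and 66.7 CPM (log2 fold change 1.44 ± 0.14 SE, adjusted p = 1.20e-12, edgeR). Plxnc1, the Sema7a receptor, was highest in Pomc neurons, the melanocortin cells that lower food intake, at 174, 196, 101 and 144 CPM (log2 fold change 1.04 ± 0.15 SE, adjusted p = 7.75e-07, edgeR). In DOCA-salt 1 the Tac2 neurons stood above them at 228 CPM. Its call in Pomc neurons was lost without DOCA-salt 2, at a log2 fold change of 0.98, and also with the looser gate (0.77), with class sums thinned to equal depth (0.95) and with no limits on nuclei (0.80).

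A contrast of the 4 neuron classes together with the other 5, added after the data were seen, called Sema4g, Sema4f, Plxna3 and Plxnc1 higher in neurons, 4 of 29, where 4.76% of all genes were called, and 7 members lower. Plxnc1 passed the threshold by little, at 1.03 ± 0.13 (SE), and was below it in 6 of 13 alternatives, among them DESeq2 and the fit without DOCA-salt 1, both at 0.98. The A plexins, the receptors of class 6 ligands and of neuropilin complexes, had log2 fold changes of 0.66 ± 0.12 (SE) for Plxna4, 0.73 ± 0.14 for Plxna2, 0.93 ± 0.14 for Plxna1 and 1.07 ± 0.17 for Plxna3, with adjusted p of 3.38e-06, 1.38e-05, 1.20e-07 and 3.13e-07 (edgeR). Their levels in astrocytes were 42.3% to 50.9% of the neuronal level, inside the range of those neuronal genes. Above that range stood Plxna4 in microglia at 98.5%, Plxna3 and Plxna2 in oligodendrocyte precursors at 96.7% and 75.9%, and Plxna2 in endothelial cells at 138% of the neuronal level. The endothelial Plxna2 level differed widely between libraries, at 124 ± 110 CPM (SD, n = 4 libraries). Whether glia hold A plexin RNA of their own was not tested.

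The members called in no single class were 9 of 29, Nrp2, Plxdc1, Plxna1 to Plxna4, Sema4c, Sema6b and Sema6c. Nrp2, the neuropilin that binds Sema3f and Sema3c, ranged from 39.9 CPM in astrocytes to 112 in GABAergic neurons. Sema6b lay between 48.1 CPM in astrocytes and 101 in glutamatergic neurons. The remaining 4 members, Sema3a, Sema3b, Sema3e and Sema3f, did not pass the filter and had mean levels of at most 16.4 CPM in any tested class. Sema3a, the classic repulsive cue that acts through Nrp1, measured 12.3, 13.5, 14.3 and 14.6 CPM in glutamatergic neurons, from 42 to 95 UMIs per library.

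Ligands were set beside their known receptors as a description, with no reference share for other pairs of genes. Of 25 pairs listed, some with members under the filter or called in no class, 8 had their highest mean level in the same tested class, 15 shared no highest class in any library, and 2 shared it in all 4 libraries. Those 2 were Sema3c with Nrp1 in endothelial cells and Sema4b with Plxnb1 in astrocytes. Sema4c and Plxnb2 shared microglia in 3 libraries. Sema7a peaked in endothelial cells at 258 CPM while its receptor Plxnc1 stood there at 42.4 and peaked in Pomc neurons at 153 ± 41.1 CPM (SD, n = 4 libraries).

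Sema4d and Plxnb1 were also split, the ligand in mature oligodendrocytes at 124 ± 38.8 CPM and the receptor in astrocytes at 219 ± 73.1 CPM (SD, n = 4 libraries). Sema5a was highest on average in oligodendrocyte precursors and Plxnb3 in mature oligodendrocytes, and they shared no highest class in any library. Sema6a of mature oligodendrocytes and Plxna4 of glutamatergic neurons shared no highest class in any library. Side by side levels say nothing of contact or binding between these cells.

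**Figure D3:**
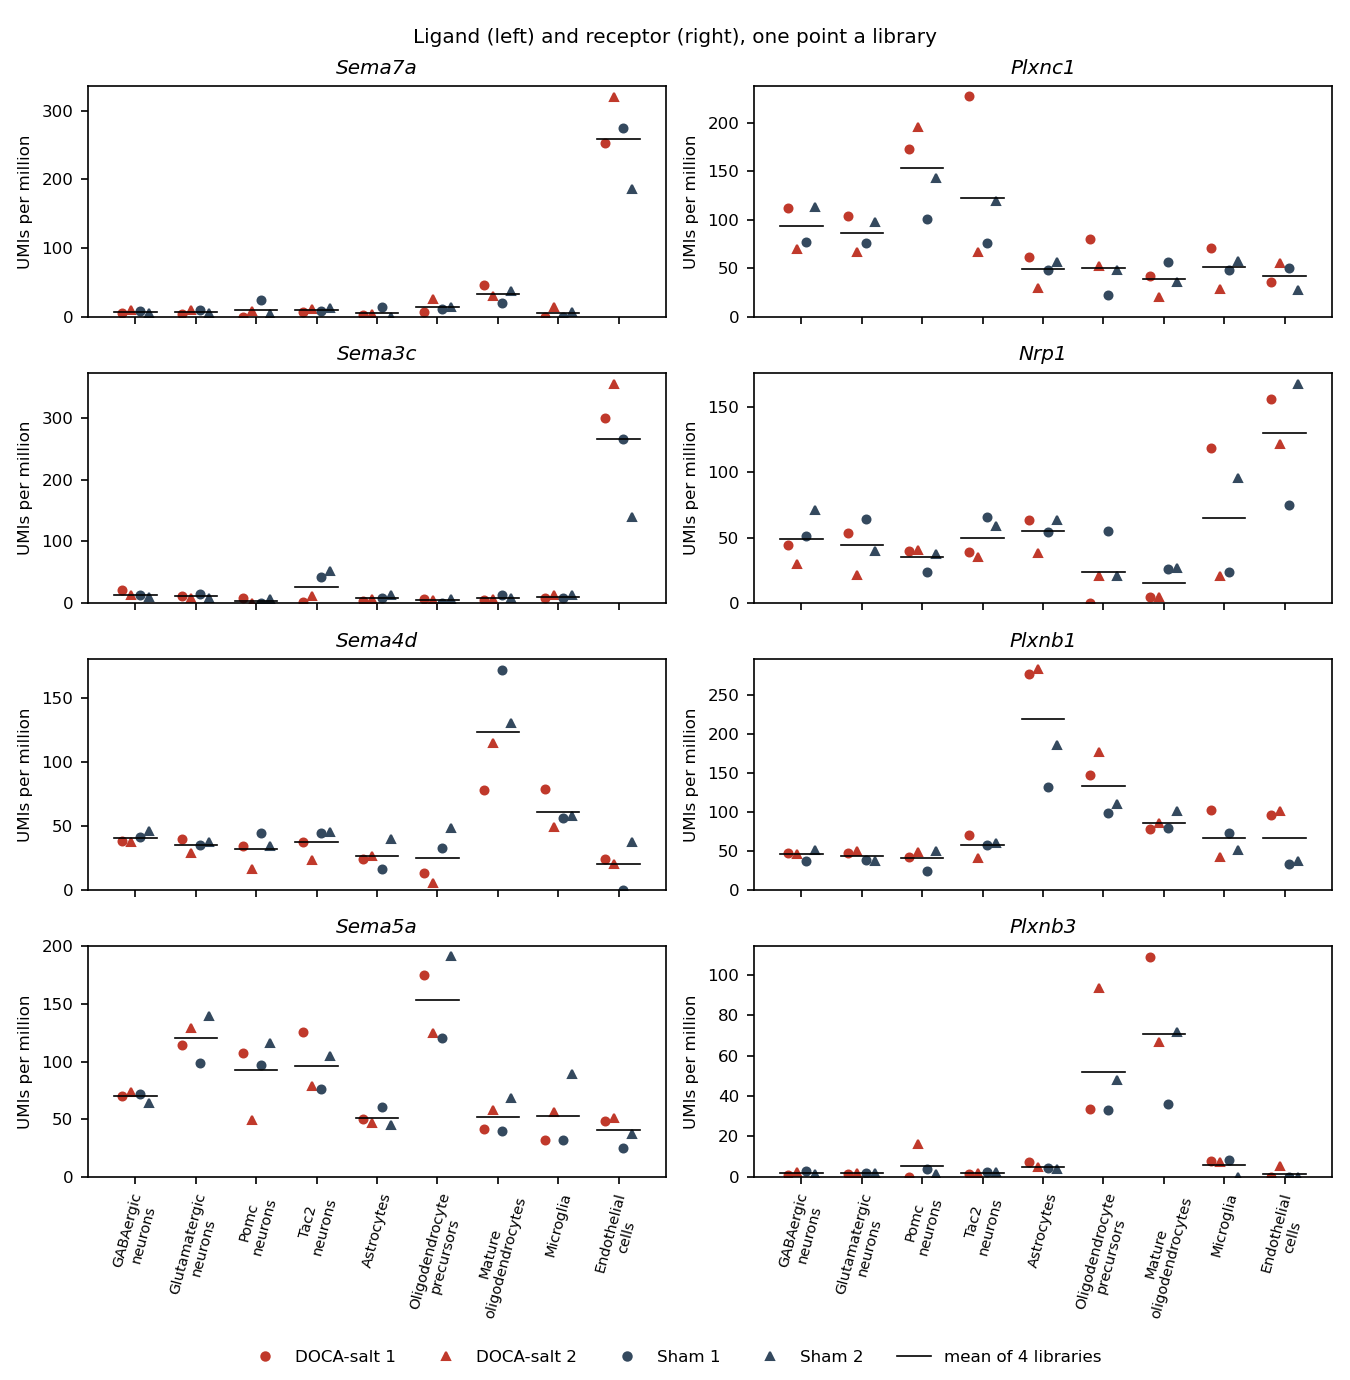
CPM (linear axes from 0, not shared between panels) of 4 ligands on the left and a receptor of each on the right, by class, a point for each library and a bar for the mean of the 4. Sema3c and Nrp1 peak together in endothelial cells, whereas Sema7a and Plxnc1 peak in endothelial cells and Pomc neurons, and Sema4d and Plxnb1 in mature oligodendrocytes and astrocytes.

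Genes that work with plexins, 45 in all, were read from the same fits. Of the 40 tested, 19 were called in at least 1 class, a count with no reference share over all genes. Of their 24 calls, 22 (91.7%) fell in non-neuronal classes, where 81.7% of the calls over all genes fell. The counts per class that follow are of the 40 tested. Over all genes, 8.38% were called in endothelial cells, 5.21% in microglia, 8.89% in astrocytes and 7.75% in mature oligodendrocytes. The share was 6.01% in oligodendrocyte precursors, 2.55% in glutamatergic neurons and 2.14% in Pomc neurons. Endothelial cells had 7 of these calls, led by Itga1, an integrin chain of the kind Sema7a binds, at 325, 213, 258 and 121 CPM, and by Kdr, the growth factor receptor that pairs with Nrp1, at 240, 132, 83.2 and 140 CPM. Microglia had 3, led by Trem2, named as a partner of Sema6d and Plxna1 signalling, at 537, 494, 218 and 364 CPM, and by the kinase Fes (log2 fold change 5.13 ± 0.46 SE, adjusted p = 3.15e-13, edgeR). Astrocytes had 5, led by Itga1 at 2.83 ± 0.51 and Mical1, an enzyme that disassembles actin behind plexins, at 2.78 ± 0.24 (log2 fold change, SE).

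Mature oligodendrocytes also had 5 partner calls, led by Fgd3, a regulator of small GTPases (2.21 ± 0.39, log2 fold change and SE), and by Kdr, which held 14 UMIs there in all (1.53 ± 0.56). Oligodendrocyte precursors had 2, Cntn1, a cell surface adhesion molecule, at 1.14 ± 0.10 and Dpysl3, a collapsin response mediator, at 1.03 ± 0.22. Glutamatergic neurons had Dpysl4, a relative of Dpysl3, and Pomc neurons had Fgd3. Of all neurons against the other classes, L1cam, a co-receptor of Nrp1, and Dpysl4 led the calls, at 1.25 ± 0.11 and 1.22 ± 0.18 on the log2 scale.

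DOCA-salt was compared with Sham in each of the 9 tested classes. Agrp neurons, Ghrh neurons and tanycytes were not among them. The study reported the term Semaphorin receptor binding among DOCA-salt genes of an Agrp subcluster, which the tests here do not cover. Agrp, Pomc and tanycyte nuclei numbered 1, 16 and 6 in DOCA-salt 2, against 234, 143 and 88 in DOCA-salt 1. They numbered 29, 23 and 4 in Sham 1 and 96, 126 and 42 in Sham 2. Marker UMIs of neighbouring regions differed too, and UMIs per nucleus were higher in Sham in each tested class, as given above. The parts of the punched region and of depth per nucleus in the treatment values were not tested. They cannot be told apart from treatment here. Members passed the filter in 164 combinations of member and class, and 0 of 164 were called at an adjusted p under 0.05 by edgeR and 0 by DESeq2. An unadjusted p under 0.05 was met in 24, or 14.6%, and in 7.84% of the tests over all genes. Of these, 17 had a lower and 7 a higher level in DOCA-salt. Plxna4 alone gave 6 of the 24 and Sema6d 4. The classes come from the same 4 libraries, so the 24 are not independent and the 14.6% is not a share of members. Few genes of any kind were called: 0.0% in GABAergic, 0.00771% in glutamatergic, 0.0469% in Pomc and 0.0103% in Tac2 neurons, 0.152% in astrocytes, 0.185% in oligodendrocyte precursors, 0.0133% in mature oligodendrocytes, 0.183% in microglia and 0.0376% in endothelial cells. The count depended on single libraries: without DOCA-salt 1 it was 18, with 5428 calls over all genes, and without DOCA-salt 2 it was 4, with 1390. The lone library left in such a fit is assumed to vary like the Sham libraries.

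Plxna4 (chr6:32144268-32588192, minus strand), a receptor for Sema3a complexes and class 6 ligands, had the lowest p among members in 3 classes. In astrocytes it measured 33.6 and 18.2 CPM with DOCA-salt, against 72.8 and 57.9 CPM in Sham (log2 fold change -1.38 ± 0.35 SE, adjusted p = 0.0994, edgeR). In mature oligodendrocytes the levels were 25.9, 13.7, 75.8 and 42.6 CPM (adjusted p = 0.383, edgeR), and in microglia 71.0, 21.1, 121 and 140 CPM (adjusted p = 0.346, edgeR). Both DOCA-salt values lay below both Sham values in each of these classes. Over the alternatives the adjusted p in astrocytes ranged from 0.00605, without DOCA-salt 1, to 0.895 (edgeR and DESeq2).

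The same order held in GABAergic neurons, with 93.3, 53.7, 120 and 121 CPM, and in glutamatergic neurons, with 95.7, 59.8, 118 and 136 CPM. In all, both DOCA-salt libraries were below both Sham libraries in 7 of the 9 classes. Among the 7 were endothelial cells, where Plxna4 was under the filter (means 18.7 CPM in DOCA-salt and 59.7 in Sham). The treatments overlapped in Pomc neurons and in oligodendrocyte precursors, the latter also under the filter. All 9 classes come from the same 4 libraries and are not independent. Plxna4 is described because of its low p in these fits, and how many other genes had this order was not counted. Neuronal genes outside the family moved with Plxna4 in part. Scg2 averaged 838 and 671 CPM over the neuron classes of the DOCA-salt libraries against 1026 and 1038 in Sham. Over the other classes it averaged 312 and 336 against 596 and 520. Celf4 had the same order in both sets of classes. Meg3 had it in the neuron classes, but overlapped in the other classes, at 2337 and 1199 against 2501 and 2148 CPM. The part of that shift in the Plxna4 values was not tested.

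Sema6d did not pass the test in any class with all 4 libraries and the main settings. It measured 47.3 and 38.7 CPM in DOCA-salt against 67.6 and 68.4 in Sham in GABAergic neurons (log2 fold change -0.71 ± 0.17 SE, adjusted p = 0.729, edgeR). In glutamatergic neurons it measured 19.1 and 18.9 against 39.3 and 30.6 CPM (-0.90 ± 0.21 SE, adjusted p = 0.415, edgeR), and in Tac2 neurons 40.3 and 49.5 against 102 and 70.5 CPM. The groups did not overlap in these 3 classes. Endothelial cells had the same order, at a mean of 51.3 CPM in DOCA-salt against 113 in Sham (-1.28 ± 0.61 SE, adjusted p = 0.495, edgeR). In microglia, where Sema6d was under the filter, both DOCA-salt values lay above both Sham values (means 55.8 and 32.9 CPM). In astrocytes the groups overlapped, at 118 and 132 against 111 and 123 CPM. With all 4 libraries, Sema6d was called in glutamatergic neurons with no filter (adjusted p = 0.0246) and with a replicate block (0.0212, edgeR). In GABAergic neurons it was called with a crossed block (0.0449, edgeR). The other alternatives with all 4 libraries did not call it. Without DOCA-salt 1 the log2 fold change was -0.88 in glutamatergic and -0.82 in GABAergic neurons. Without DOCA-salt 2 it was -0.90 in glutamatergic neurons. Leaving out nuclei with striatal or lateral hypothalamic markers gave 0 member calls by edgeR.

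Sema3c differed most in Tac2 neurons, which make neurokinin B, at 1.44 and 12.6 CPM in DOCA-salt against 42.4 and 52.0 in Sham. The counts were 1, 14, 20 and 45 UMIs, and the log2 fold change was -2.60 ± 0.59 (SE, adjusted p = 0.954, edgeR). In endothelial cells, where the gene is most abundant, the order was the opposite, 300 and 355 against 266 and 140 CPM (adjusted p = 0.470, edgeR). The adjusted p in Tac2 neurons ranged from 1.61e-07 without DOCA-salt 2 to 1.00 over the alternatives tried. Nrp1, its receptor, measured 38.9 and 35.1 against 65.8 and 58.9 CPM in Tac2 neurons, and its endothelial levels overlapped between treatments.

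**Figure D4:**
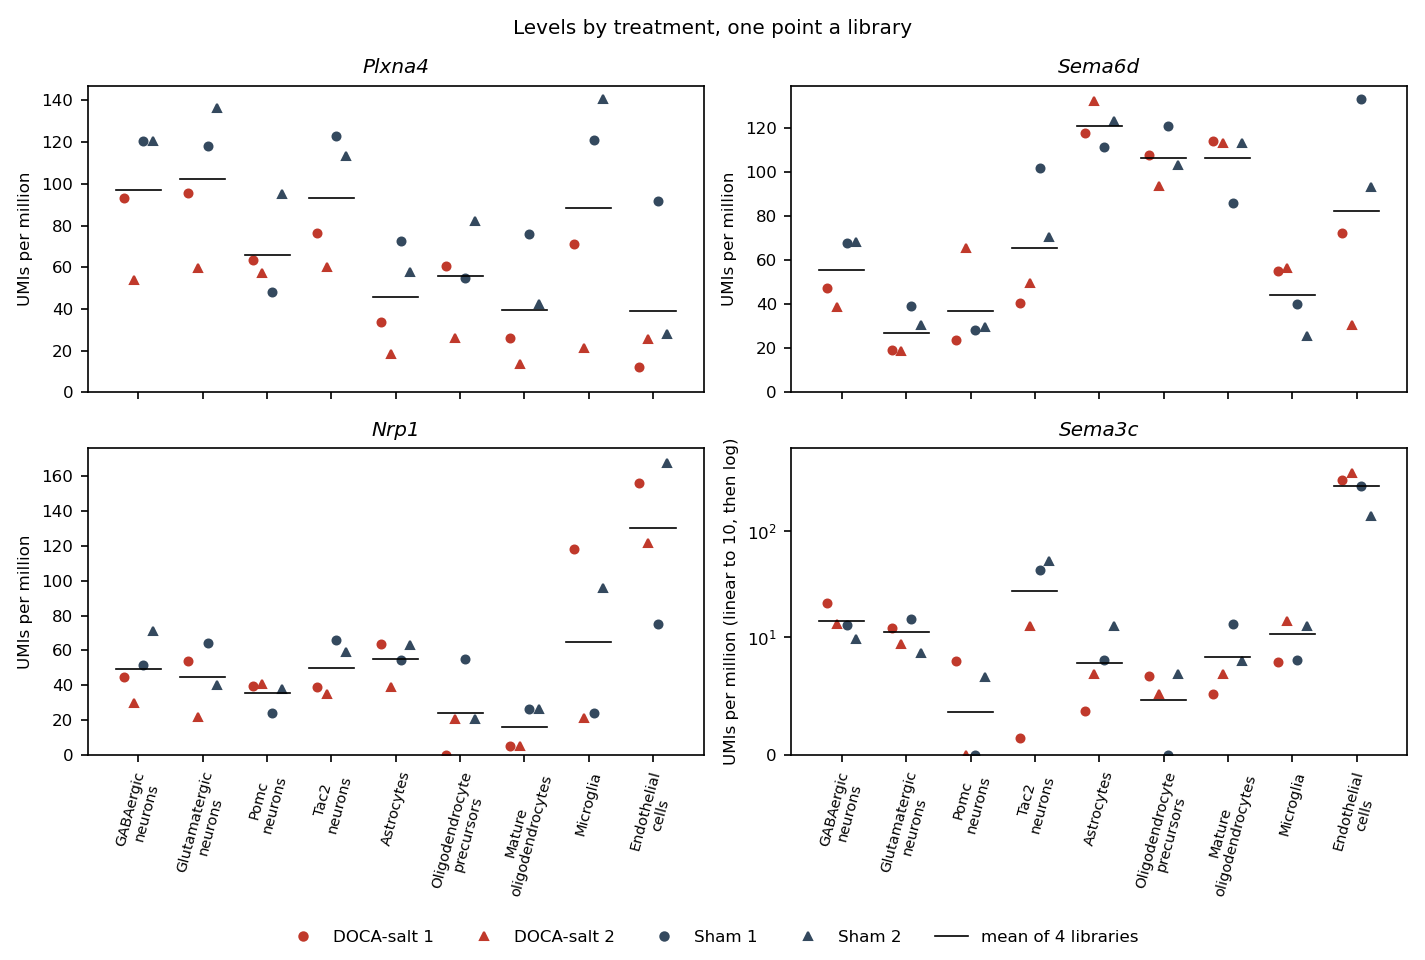
CPM of Plxna4, Sema6d, Nrp1 and Sema3c by class, DOCA-salt libraries in red and Sham libraries in dark blue, bars for the mean of 4. The Sema3c axis is linear to 10 and logarithmic above; Plxna4 points of DOCA-salt lie below those of Sham in 7 of 9 classes, and Sema3c differs in opposite directions by level in Tac2 neurons and endothelial cells. In endothelial cells, 1 of those 7 classes, Plxna4 was under the filter and not tested. The adjusted p was above 0.05 for all 4 genes in every class tested. How many other genes had both DOCA-salt points below both Sham points was not counted.

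In the remaining classes the member of lowest p was Plxnc1 in Pomc neurons (174 and 196 against 101 and 144 CPM, adjusted p = 0.934), Plxna2 in oligodendrocyte precursors (67.2 and 26.0 against 76.8 and 103 CPM, adjusted p = 0.655) and Sema6a in endothelial cells (48.1 and 40.6 against 158 and 112 CPM, adjusted p = 0.278, edgeR). The Sema6a values rested on 4, 8, 19 and 12 UMIs. Of the members that marked a class, Plxnb1 in astrocytes had both DOCA-salt values above both Sham values, with a log2 fold change of 0.82 ± 0.26 (SE, adjusted p = 0.189, edgeR), and Plxnb2 in microglia likewise, at 0.96 ± 0.41 (SE, adjusted p = 0.563, edgeR). Sema7a in endothelial cells differed by 0.38 ± 0.33, Sema5b in oligodendrocyte precursors by -0.01 ± 0.40 and Sema4d in mature oligodendrocytes by -0.54 ± 0.29 (log2, SE), so that changes of moderate size cannot be told from none with 2 pools per treatment.

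The difference of the DOCA-salt effect among the 9 classes was tested for the 29 members in 1 fit. It was called for 0 of 29 by edgeR's quasi-likelihood F-test, where 0.0183% of all genes were called. An unadjusted p under 0.05 was met by 6 of the 29 and by 4.77% of all genes. The lowest belonged to Sema3c (adjusted p = 0.281, edgeR) and Sema6d (adjusted p = 0.301, edgeR). Among the alternatives, Sema6d, Sema3c and Plxdc2 were called only in fits that kept 1 DOCA-salt library. In those fits the calls over all genes rose too, so these calls are no result about the members. The partner genes had 0 of 267 tests called between treatments by edgeR and 0 by DESeq2. Of the 267, 25 had an unadjusted p under 0.05 by edgeR, as did 7.84% of the tests over all genes. For a difference among classes, 0 of 40 were called. There 1 of the 40 had an unadjusted p under 0.05, against 4.77% of all genes.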

How the data were processed

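The labels and the study's methods describe single-nucleus RNA-seq of arcuate nucleus punches from 4 libraries, 2 DOCA-salt and 2 Sham, each pooling nuclei of 2 mice. The authors made the deposited count matrices with Cell Ranger 3.0.1 on mm10, per the labels' processing notes: whole-number UMI counts per gene and nucleus, not normalized. Columns of barcodes and genes only name the rows. No per-sample column was left unused.

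Nuclei with more than 200 and under 7000 genes, under 25000 UMIs and under 15% mitochondrial UMIs were kept, the study's limits. Non-neuronal classes needed 3 marker UMIs from 2 marker genes, 4 times the number expected from the nucleus's depth, a lead of 1.5 over the runner-up class and neuron markers under 0.5 of expectation (0.5 was added to both counts). Neurons needed 5 UMIs from 3 neuron markers, then transmitter genes; Agrp, Pomc, Ghrh and Tac2 neurons needed 5 UMIs of that gene at 5 times expectation. The names are those of the gating markers, and the thresholds were set after marker purity had been seen. No doublet caller was run.

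UMI counts were summed per class and library. edgeR 4.0.16 (R 4.3.3; filterByExpr, TMM, glmQLFit, glmQLFTest) compared each class with the mean of the other tested classes, with library as a block, and DOCA-salt with Sham within a class, with no covariate. An F-test took all class by treatment terms together. Calls used Benjamini-Hochberg adjusted p under 0.05 over all genes, and for classes a log2 fold change over 1. The standard error is the fold change over the root of F. The edgeR fits for classes, treatment and interaction were tried on simulated class sums with known changes. Those sums had a fixed dispersion and no differences between libraries beyond depth. The other steps were not tried on simulated data. DESeq2 1.42.0 was an alternative, beside RLE size factors, no filter, other gates, thinning, no limits on nuclei, other blocks and leaving out each library. Gene positions are from GENCODE vM21 (GRCm38). Depth per library is given in the report. In the treatment fits, p-values measure the spread between pools. In the class and interaction fits, with library as a block, they measure the spread of class sums left after library differences.

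The members, partner lists and pairs were chosen with earlier results of these data known. Values in every library are given, per class, for up to 3 called members of largest fold change. Sema4f and Sema4g in Pomc neurons are given as treatment means only. With no call, values are given for the member of lowest p. Partners are given for up to 2 of largest fold change. Free RNA genes, the contrast of all neurons and members named from classes not tested were chosen after values were seen.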

Additional observations from a re-analysis of the deposited data

How the results depend on the processing

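The count of class calls stayed between 18 (looser gate) and 36 (no filter of low counts) of the main 27. The calls over all genes moved the same way, from 4841 in the main fit to 3501 with the looser gate and 8081 with no filter. Of the 27 calls, 15 were made under each alternative that fitted their class. A member under an alternative's filter was counted as not called. Sema3g and Plxnd1 in endothelial cells could not be tested with thinned sums and so are not among the 15. The looser gate took away Sema4f and Sema4g in neurons, Plxnc1 in Pomc neurons, Sema4a in astrocytes, Sema5a in precursors and Plxnb2 in microglia; no call reversed. The stricter gate left 7 of the 9 classes with 10 nuclei in each library. Without 1 library the count ranged from 27 to 33. Partner gene calls moved from 24 to 15 under the looser gate, and ranged from 21 to 26 without 1 library.

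For DOCA-salt against Sham, no filter of low counts gave 4 member calls (Sema6d and Plxna4 in glutamatergic neurons, Sema3c in Tac2 neurons, Plxna4 in astrocytes) and 1 partner call, with 582 calls over all genes. Leaving out 1 library gave 0 to 18 member calls, 0 to 29 partner calls and, for the difference among classes, 0 to 2. With a replicate block, 3 members were called (Sema6d and Plxna4 in glutamatergic neurons, Plxna4 in astrocytes) and 1 partner, with 354 calls over all genes in place of 34. The labels name no animal or day shared by same-numbered libraries. The correlation of same-numbered libraries' deviations ran from -0.32 to 0.16 over the classes. This cannot show whether a day was shared, because the libraries also differed in region markers and depth. A crossed replicate block, added after the data were seen, gave 6 member calls and 2 partner calls, with 546 over all genes. The cause of these differences was not tested.

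Depth limited rare classes most: Sham 1 had 15 precursor, 21 microglial and 22 endothelial nuclei, and 8 members passed the filter between treatments in endothelial cells. The 4 rare class 3 members could not be compared among classes. Standard errors of treatment folds cover spread between pools. Those of class folds cover the spread of class sums left after library differences. Free RNA was neither modelled nor removed.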

Other observations

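In classes with under 10 nuclei in some library, members were read as values with no test; they were chosen after their values were seen. Differentiating oligodendrocytes, 5, 13, 3 and 10 nuclei (DOCA-salt libraries, then Sham), had a Plxnb3 level of 177, 304, 192 and 184 CPM, from 2, 9, 5 and 8 UMIs. The highest library of any tested class stood at 109. Over the 4 libraries summed, Plxnb3 stood at 217 CPM there, Sema5a, its ligand, at 425 and Sema4d at 281.

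Tanycytes, the glia that line the third ventricle, numbered 88, 6, 4 and 42 in the same order. Their Nrp2 level was 224, 148, 380 and 315 CPM, from 61, 4, 14 and 70 UMIs, and their Plxnb2 level 298, 482, 163 and 221 CPM. The means, 267 and 291 CPM, compare with at most 112 and 174 among the tested classes. Ependymal nuclei, 35 of them in DOCA-salt 2 and at most 4 elsewhere, held 441 CPM of Plxnb1 and 397 of Plxnb2 in that library.

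Agrp neurons, which drive feeding, numbered 234, 1, 29 and 96. Leaving aside the lone nucleus of DOCA-salt 2, Plxna2 measured 152 CPM with DOCA-salt and 137 and 164 CPM in Sham, and Plxna4 76.9, 151 and 124 CPM. Ghrh neurons, 65, 19, 8 and 41 nuclei, held Plxnc1 at 125, 123, 171 and 135 CPM, within the range of the Pomc neurons.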
